A study of Homo sapiens with 4 samples.

Results

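The 10 genes of matricellular and matrix glycoproteins described here were measured in MHCC97-H cells, a human hepatocellular carcinoma line, after clofazimine. They are SPARC, FN1, DCN, BGN, THBS1, TNC, TGFBI, SPP1, VCAN and FBN1, taken by symbol from the deposited table, in which they are 10 of 58735 genes. The 2 treated libraries came from cells given clofazimine, a riminophenazine antibiotic, for 16 h, and the 2 others from untreated cells labelled for the same time point. The dose is 40 uM in the sample labels and 30 uM in the description of the series, and the sources do not settle which was used. All 4 libraries carry the label wild type, and all came from poly(A) RNA of a single cell line grown in medium with serum. Nothing in the labels states that libraries of a group are separate cultures, and each p-value therefore reflects library spread that may be technical. The list was drawn up with the fold changes of this same contrast in view and counts as selected on them, so their differences between groups are a description and carry no test.

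The extracellular matrix is the secreted network to which cells attach. Fibronectin and fibrillin are scaffold glycoproteins of that network, and cells bind fibronectin through integrins. Matricellular proteins such as SPARC, thrombospondin 1, tenascin-C and osteopontin are secreted into the matrix without being structural, and they modulate adhesion and growth factor signals. Decorin and biglycan are small leucine-rich proteoglycans, and versican is a large one that binds hyaluronan. In liver much of the fibrous matrix is laid down by stellate cells and fibroblasts, while hepatocytes also secrete fibronectin into plasma.

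Library totals ran from 13543437 to 16860578 counts. The label of liver tumour cells was checked against defining markers. Of 18 hepatocyte and liver tumour markers, 7 (ALB, APOA2, APOB, TTR, AFP, FGB and FGG) had 0 counts in all 4 libraries and 5 had enough counts to be tested, with the epithelial keratins KRT8 and KRT18 carrying most of the counts. With 13 of the list too low to test, these counts do not establish a hepatocyte identity, and the name of the line rests on the labels. The summed level of that list was 1761 and 1998 CPM in clofazimine and 1618 and 1890 CPM in untreated libraries (CPM, counts scaled to TMM-adjusted library size). Of 15 fibroblast, stellate and pericyte markers 8 were tested, of 10 endothelial markers 2 and of 12 macrophage and white blood cell markers 2. Their summed levels were 448 and 406 CPM in clofazimine against 394 and 413 CPM in untreated libraries for the fibroblast list, 6.28 and 6.35 against 26.7 and 34.0 CPM for the endothelial list, and 21.0 and 23.9 against 40.0 and 44.9 CPM for the macrophage list. By edgeR's quasi-likelihood test (adjusted p under 0.05), 4 of the 8 fibroblast genes were lower and 1 higher, at a median log2 fold change of -1.25. A sum follows its abundant genes and does not show this. Of the 2 tested endothelial genes 2 were lower, as were 2 of the 2 macrophage genes. Among the 5 tested hepatocyte list genes 2 were lower and 1 higher. Over all genes tested 30.4% were lower and 29.5% higher. POSTN, KDR, EMCN, LYVE1, PTPRC, CD163, LYZ and TYROBP were at 0 counts in every library, and the part of these markers in the results was not tested. The labels name a single cell line and no other cell type. In bulk RNA, fewer cells expressing a gene and less RNA per cell cannot be told apart.

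Of the 10 genes 5 were abundant and 5 were rare or absent. The promoters of 4 of the abundant ones are shown here because they fall on both sides of the pattern described below: FN1 and TNC were lower in clofazimine libraries by more than 2-fold, while THBS1 and TGFBI differed least. Of the 10 genes 9 matched the RefSeq promoter table (GRCh38.p14), which gives 250 bases before to 50 after the start, and DCN did not. Only the part of each window before the first start annotated in GENCODE 29 is printed, 5′ to 3′ on the gene's own strand, with any searched motif in capitals.
FN1 (chr2:215436173-215436318, minus strand): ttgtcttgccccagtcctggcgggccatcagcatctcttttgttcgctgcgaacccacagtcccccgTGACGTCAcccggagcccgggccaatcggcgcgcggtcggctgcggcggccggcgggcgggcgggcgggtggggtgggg
TNC (chr9:115118258-115118407, minus strand): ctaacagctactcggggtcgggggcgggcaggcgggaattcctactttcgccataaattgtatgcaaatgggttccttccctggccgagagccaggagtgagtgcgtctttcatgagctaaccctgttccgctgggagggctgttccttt
THBS1 (chr15:39580829-39581078, plus strand): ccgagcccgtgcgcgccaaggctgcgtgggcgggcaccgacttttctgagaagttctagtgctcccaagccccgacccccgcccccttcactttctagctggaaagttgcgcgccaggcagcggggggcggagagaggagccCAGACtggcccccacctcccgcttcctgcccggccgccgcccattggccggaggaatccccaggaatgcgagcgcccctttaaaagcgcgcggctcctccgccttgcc
TGFBI (chr5:136028738-136028894, plus strand): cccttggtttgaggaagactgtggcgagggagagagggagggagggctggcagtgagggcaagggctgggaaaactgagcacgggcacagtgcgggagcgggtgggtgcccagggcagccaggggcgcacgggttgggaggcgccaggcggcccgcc

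The motifs were searched on both strands of the full 300-base windows. They were the CArG box of serum response factor, the AP-1 site TGANTCA, the TATA box TATAAA, the SMAD-type CAGAC and the cyclic AMP response element TGACGTCA, the last of which was added after the FN1 sequence had been seen and which does not overlap the AP-1 letters. FN1 was the only one of the 9 with TGACGTCA, 183 bases before its RefSeq start, and 1.85% of 35116 promoters of the same length hold it. CAGAC lay in the windows of SPARC, THBS1, TNC and SPP1, and in 45.3% of all promoters. No CArG box (1.29% of all), TGANTCA (7.71%) or TATAAA (11.5%) was found in the 9 windows, which says only that these letters are not there. BGN, TGFBI, VCAN and FBN1 held none of the 5 motifs.

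Fibronectin was the most abundant of the 10 in untreated cells and lost the most counts. FN1 (ENSG00000115414, chromosome 2, 215360440 to 215436172, GRCh38), which encodes the adhesive scaffold glycoprotein, had 268 and 168 CPM in clofazimine libraries, against 687 and 715 CPM in untreated ones. Both clofazimine libraries lay far below both untreated libraries, and they differed from each other 1.60-fold where the untreated ones differed 1.04-fold. The means were 218 ± 71.1 CPM with clofazimine and 701 ± 19.4 CPM untreated (SD, n = 2 each), a log2 fold change of -1.69 ± 0.18 (SE), or 3.22-fold lower. That value was -2.04 without clofazimine replicate 1 and -1.37 without clofazimine replicate 2, so its size depended on which treated library was used.

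TNC (ENSG00000041982, chromosome 9, 115019578 to 115118257) encodes tenascin-C, an anti-adhesive glycoprotein of remodelling matrix and tumour stroma. It had 67.7 and 42.8 CPM in clofazimine libraries, against 116 and 124 CPM in untreated ones. The groups did not overlap, and as for FN1 the second clofazimine library was the lower one. The log2 fold change was -1.12 ± 0.16, or 2.18-fold lower, and was -1.47 and -0.82 without clofazimine replicates 1 and 2 in turn. DEC1, which spans TNC on the opposite strand, had 0 and 4 counts in clofazimine and 0 and 1 in untreated libraries, too few to add to the TNC counts.

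THBS1 (ENSG00000137801, chromosome 15, 39581079 to 39599466), the gene of thrombospondin 1, an inhibitor of angiogenesis that also activates latent TGF-beta, differed little between groups on the TMM scale. It had 80.8 and 71.6 CPM in clofazimine libraries, against 88.2 and 96.1 CPM in untreated ones. The groups lay close together without overlapping, and the log2 fold change was -0.27 ± 0.12. It was -0.44 with library totals in place of TMM, under which 7 of the 10 genes in place of 6 had an adjusted p under 0.05 and were lower, and -0.06 once exon length and GC content were corrected for. The overlapping FSIP1, on the opposite strand, had only 10 to 16 counts in any library.

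The matricellular protein SPARC, which binds collagen and calcium, showed the largest difference among the 10 but from few reads. SPARC (ENSG00000113140, chromosome 5, 151661096 to 151687165) had 2 and 3 counts in clofazimine libraries, against 46 and 63 in untreated ones. On the CPM scale these are 0.155 and 0.196 against 2.62 and 3.56. From the summed counts it was 17.4-fold lower, with an exact 95% interval of 7.24 to 54.7 that covers counting error only. The fitted log2 fold change was -4.06 ± 0.52. SPARC entered the fit through its untreated libraries alone, since neither clofazimine library reached the count filter, so a gene kept on these terms had to be lower. SPP1 (ENSG00000118785, chromosome 4, 87975650 to 87983426), which encodes osteopontin, a secreted integrin and CD44 ligand often raised in liver cancer, had 3 and 1 counts in clofazimine and 0 and 1 counts in untreated libraries. Both groups were at or under the floor of 3 counts per library, and no fold is given.

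TGFBI (ENSG00000120708, chromosome 5, 136028895 to 136063818) encodes an adhesion protein first described as induced by TGF-beta. It had 193 and 202 CPM in clofazimine libraries, against 187 and 176 CPM in untreated ones. The 4 values lie within a narrow span and the clofazimine ones are just above, at a log2 fold change of 0.12 ± 0.12, which turned to -0.05 with library totals and was 0.39 with the length and GC correction. TGFBI was the single tested gene of the 10 that was not lower with clofazimine on the TMM scale, and on library totals none was higher.

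FBN1 (ENSG00000166147, chromosome 15, 48408306 to 48645849) encodes fibrillin 1, the backbone of microfibrils that also store latent TGF-beta complexes. It had 133 and 100 CPM in clofazimine libraries, against 265 and 264 CPM in untreated ones. The untreated libraries were nearly equal and the clofazimine ones about 1.32-fold apart, with no overlap between groups. FBN1 was 2.27-fold lower, at a log2 fold change of -1.18 ± 0.14. AC084757.3, a long noncoding RNA gene (48645951 to 48652016) that starts 102 bases away on the opposite strand, had 1 and 4 counts in clofazimine libraries, against 42 and 27 in untreated ones. It was 11.03-fold lower from summed counts, with an exact 95% counting interval of 4.50 to 35.0, and edgeR's quasi-likelihood test gave a Benjamini-Hochberg adjusted p of 1.45e-04. This gene too passed the count filter through its untreated libraries alone, and its fitted log2 fold change of -3.41 was -4.51 without clofazimine replicate 2.

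The proteoglycan genes were expressed at low levels or not at all. DCN (ENSG00000011465, chromosome 12, 91140484 to 91183123), which encodes decorin, a collagen-binding proteoglycan that restrains TGF-beta and receptor tyrosine kinases, had 1.47 and 2.03 CPM in clofazimine libraries, against 3.87 and 4.75 CPM in untreated ones. BGN (ENSG00000182492, chromosome X, 153494939 to 153509554), the gene of the related biglycan, had 0.776 and 0.589 CPM in clofazimine libraries, against 1.82 and 2.49 CPM in untreated ones. Neither gene's groups overlapped, and the log2 fold changes were -1.28 ± 0.31 for DCN and -1.66 ± 0.43 for BGN. These rest on 19 and 31 counts with clofazimine against 68 and 84 untreated for DCN, and on 10 and 9 against 32 and 44 for BGN. The start of BGN overlaps HAUS7 on the opposite strand, which had 29 and 21 counts in clofazimine and 42 and 33 in untreated libraries, a number like that of BGN, and whether counting used strand is not given in the sources used here. VCAN (ENSG00000038427, chromosome 5, 83471465 to 83582303), the gene of versican, had 0 counts in all 4 libraries, which allows a level of up to 0.170 to 0.233 CPM (3 counts per library, counting error only), and its antisense gene VCAN-AS1 also had 0.

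**Figure D1:**
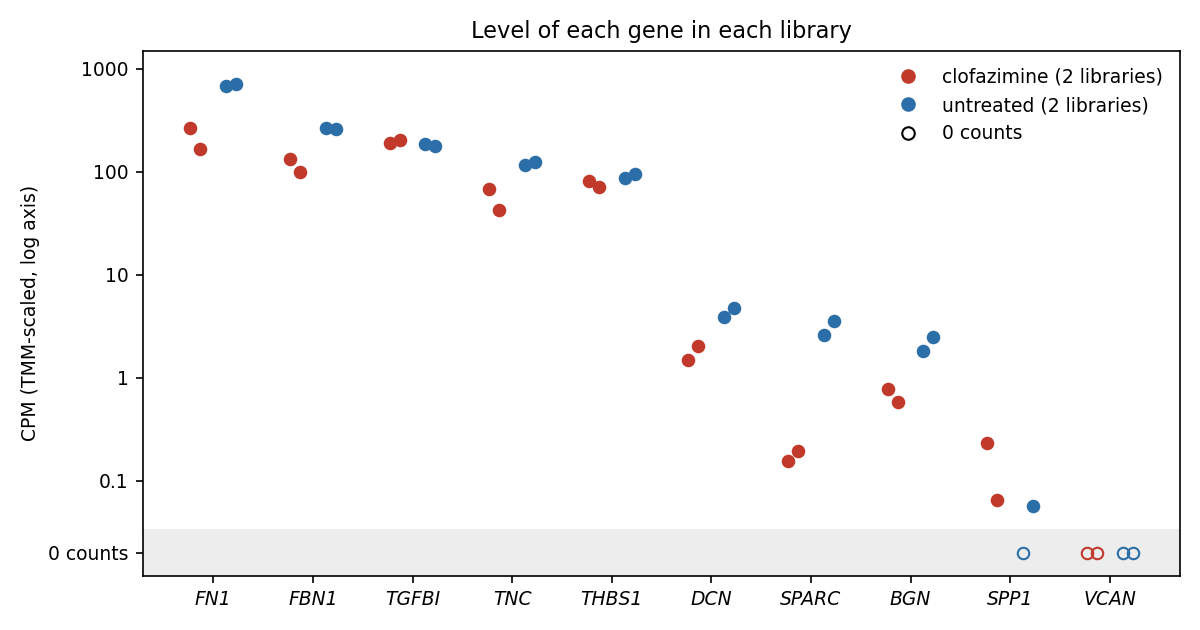
Level of each of the 10 genes in each library, in CPM on a log axis, with clofazimine libraries in red left of untreated libraries in blue and libraries with 0 counts as open circles in the grey band. FN1, FBN1, TNC, DCN, SPARC and BGN sit lower with clofazimine in both libraries, THBS1 and TGFBI lie close between groups, and VCAN is at 0 throughout.

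Over the 10 genes together, the summed counts were 9600 and 8972 in clofazimine libraries, against 23750 and 24517 in untreated ones. They made up 0.0709% and 0.0550% of all counts with clofazimine and 0.145% in each untreated library. FN1 alone held 36.0% and 28.6% of the summed counts with clofazimine, against 50.8% and 51.6% untreated. FN1 thus held a smaller share of the summed counts in both clofazimine libraries than in either untreated one.

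Of the 10 genes 8 passed the filter on low counts, SPARC through its untreated libraries alone, and SPP1 and VCAN did not. Of these 8, 6 had an adjusted p under 0.05 and were lower, beside 30.4% of all 16388 genes tested, and 0 were higher, beside 29.5% (edgeR quasi-likelihood test). By overlap, 7 of the 8 were lower without overlap between groups, beside 41.6% of all genes, and 1 was higher without overlap, beside 39.2%. A log2 fold change of -1 or lower was seen for 6 of the 8, beside 16.8% of all genes. The median log2 fold change of the 8 was -1.23, and that of all genes tested was -0.03. Nothing is read from these counts, because the list was drawn up with this contrast known. In all, 59.9% of genes were called, and library totals moved the calls from 4828 higher and 4983 lower to 3738 higher and 6243 lower, a share of higher genes of 37.5% in place of 49.2%, with a shift of -0.17 in the median log2 fold change.

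Exon length and GC content moved with the fold changes of all genes. Of the 10 genes 7 have merged exons longer than those of 80% of the genes tested, from 7810 bases for TGFBI to 17315 for FN1, and over all genes tested the Spearman rho between exon length and log2 fold change was -0.15 and that between GC content and log2 fold change was -0.20 (across genes, which are not independent replicates). Among the 10, FN1 had the longest exons and a log2 fold change of -1.69. SPARC and BGN, whose exons are not among these long ones, had -4.06 and -1.66, from few counts. The long THBS1 and TGFBI had the smallest differences, at -0.27 and 0.12. The part of exon length in these differences was not tested. In the 1639 longest genes, from 9998 bases up, the median log2 fold change was -0.27, against 0.40 in the 1638 shortest. The 2 clofazimine libraries also differed by length, with the first higher than the second by a median of 0.15 on the log2 scale in the longest genes and by a median near 0 in the shortest. Corrected for exon length and GC content, the log2 fold change was -1.30 for FN1, -0.87 for FBN1 and -0.73 for TNC, and it was -3.93 for SPARC, -1.62 for BGN and -1.30 for DCN. The part of RNA quality in these values was not tested.

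**Figure D2:**
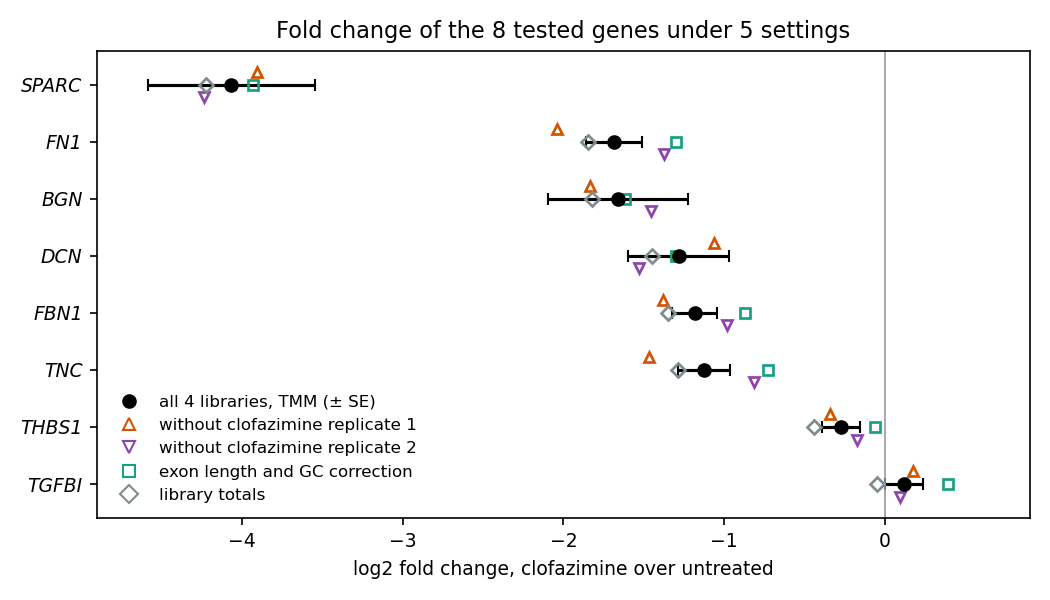
Log2 fold change of clofazimine over untreated for the 8 tested genes: black points with SE bars from all 4 libraries with TMM scaling, and open symbols for the values without clofazimine replicate 1, without clofazimine replicate 2, with the exon length and GC correction, and with library totals. FN1, FBN1 and TNC move towards 0 with the correction but stay below it, while TGFBI lies on either side of 0 depending on the scaling.

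Levels between genes were compared per length, as CPM per kb of merged exons (mean ± SD, n = 2). With clofazimine the order was TGFBI at 25.3 ± 0.816, FN1 at 12.6 ± 4.11, THBS1 at 8.32 ± 0.715, FBN1 at 7.25 ± 1.42 and TNC at 5.73 ± 1.82. In untreated libraries it was FN1 at 40.5 ± 1.12, TGFBI at 23.3 ± 0.986, FBN1 at 16.5 ± 0.0760, TNC at 12.5 ± 0.560 and THBS1 at 10.06 ± 0.610. TGFBI therefore stood first with clofazimine, where FN1 stood first untreated. With clofazimine the neighbouring pairs FN1 and THBS1, THBS1 and FBN1, and FBN1 and TNC did not differ beyond the sum of their SDs, while TGFBI and FN1 did. Untreated, each neighbouring pair among the 5 abundant genes differed beyond that sum. The rare genes followed at 0.278 ± 0.0539 for BGN, 0.136 ± 0.0305 for DCN and 0.0364 ± 0.00602 for SPARC with clofazimine, and at 0.878 ± 0.191 for BGN, 0.640 ± 0.138 for SPARC and 0.335 ± 0.0481 for DCN untreated, where BGN and SPARC did not differ beyond their SDs. The SPARC level with clofazimine rests on 2 and 3 counts, at or under the floor of 3. An SD from counts this low does not bound the counting error. Per kb of the longest transcript THBS1 and FBN1 traded places with clofazimine, and every untreated rank was the same.

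**Figure D3:**
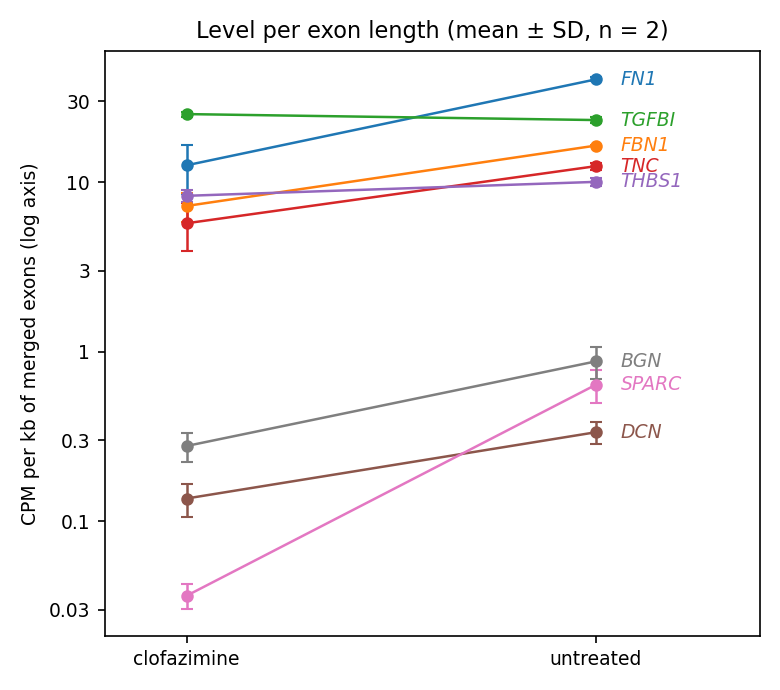
Level per exon length of the 8 genes with more than a trace of counts, in CPM per kb of merged exons on a log axis, with clofazimine left and untreated right (mean ± SD of 2 libraries). FN1 lies below TGFBI with clofazimine and above it untreated. SPARC lies below DCN with clofazimine, where it had 2 and 3 counts, and above it untreated.

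Other genes of the matrix, of its receptors and of its enzymes were taken from 9 lists written for this work, and their calls come from the same fit over 16388 genes (called at an adjusted p under 0.05 by edgeR). The shares among all genes tested, for each count below, were 30.4% lower and 29.5% higher. All 9 lists were chosen with earlier results of these data known, so nothing is read from their shares. Among the other matricellular proteins, 5 of 11 tested genes were lower and 2 higher, at a median log2 fold change of -0.45, and 14 of the list had too few counts. With library totals 6 were lower and 1 higher, and with the length and GC correction 4 were lower and 3 higher, at a median of -0.22. THBS3, a thrombospondin, had 7.76 and 6.74 CPM with clofazimine, against 18.3 and 21.02 CPM untreated, and fell by 1.44 on the log2 scale. It is overlapped on the opposite strand by MTX1, which had 352 and 441 counts with clofazimine against 412 and 451 untreated. TNXB, a tenascin, fell by 1.27, and its counts may be shared with the near-identical pseudogene TNXA. The CCN genes divided: CCN5 (WISP2 in GENCODE 29) had 54.9 and 58.0 CPM with clofazimine against 106 and 125 CPM untreated (-1.03, chosen after its values were seen), while CCN3 (NOV) had 17.5 and 21.1 against 10.8 and 12.8 CPM and rose by 0.71. CCN1 (CYR61), a YAP target, was 0.35 ± 0.13 higher at an adjusted p of 0.027, a call that ended in 6 of 12 alternative settings, library totals (0.18) and the omission of either untreated library among them.

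The list of microfibril and elastic fibre genes, not all of them partners of fibrillin 1, had the largest share of lower genes among the 9 lists. Nothing is read from that order. Of 25 tested, 23 were lower and 0 higher, at a median log2 fold change of -0.996, or -0.81 with the length and GC correction, under which 21 were lower. Among the 23, 3 had no clofazimine library at the filter and had to be lower. MMRN2 and LOXL4, named by the rule for the largest drops, had 4 and 3 counts and 4 and 1 counts with clofazimine, and were 17.2-fold (exact 95% counting interval 8.16 to 43.6) and 11.8-fold (4.85 to 37.5) lower. MMRN2 encodes an endothelial matrix protein and overlaps SNCG on the opposite strand. SNCG had 83 and 117 counts with clofazimine against 314 and 380 untreated, and reads may be shared. LOXL4 is a lysyl oxidase. MMRN2 and LOXL4 are both among those 3. The fitted log2 fold change of LOXL4, -3.50, was -4.83 and -2.72 without clofazimine replicates 1 and 2 in turn. At higher levels, FBN2, the second fibrillin, had 151 and 104 CPM with clofazimine against 281 and 304 CPM untreated (-1.20), and the latent TGF-beta binding proteins LTBP1 (-1.38), LTBP2 (-2.40), LTBP3 (-0.73) and LTBP4 (-0.92) all fell. LOX, which cross-links collagen and elastin, had a log2 fold change of -0.19 and FBN3 one of 0.65, and neither was called. MFAP1 (-0.98) is on the list by name but is known as a splicing factor. FBN2, LTBP1, LTBP3, LTBP4, LOX, FBN3 and MFAP1 were named after their values were seen.

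Of 15 tested large and cell-surface proteoglycans 9 were lower and 2 higher, at a median of -1.21, and -0.77 with the length and GC correction. HSPG2, which encodes perlecan of basement membranes, had 182 and 91.1 CPM with clofazimine, against 671 and 785 CPM untreated, and was 5.34-fold lower. BCAN had 1 and 3 counts with clofazimine and was 22.6-fold lower (exact 95% counting interval 8.58 to 84.3), but it overlaps the opposite-strand gene AL365181.3, which had 18 and 27 counts with clofazimine against 360 and 389 untreated. BCAN also passed the count filter through its untreated libraries alone and had to be lower, and without clofazimine replicate 2 its fitted log2 fold change was -5.22 in place of -4.42. SDC4, a syndecan that acts as a co-receptor for fibronectin, went the other way, with 411 and 401 CPM against 209 and 212 CPM, and rose 1.93-fold. SRGN was 0.43 ± 0.16 higher, a call that ended in 6 of 12 alternative settings, library totals (0.26) among them, and the value turned to -0.32 with the length and GC correction. Of 7 tested small leucine-rich proteoglycans 3 were lower (ECM2, FMOD and PRELP) and 0 higher, at a median of -1.11. Of the 16 genes on that list 9 were not tested, and 4 had 0 counts in all libraries. The summed level of all 16 follows its abundant genes and does not describe the rare ones, and it did not fall. It was 109 and 104 CPM with clofazimine, against 103 and 108 CPM untreated. ECM2 fell by 1.70, a call that ended without untreated replicate 1 (-1.10). ECM2 is overlapped on the opposite strand by CENPP, which had 132 and 120 counts with clofazimine against 157 and 150 untreated. The count of lower small leucine-rich proteoglycans was 5 with library totals and 1 with the DESeq2 Wald test. Of the 3 lower genes, 2 had no clofazimine library at the filter.

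Other adhesive glycoproteins had 11 of 15 tested genes lower and 1 higher, at a median of -0.52. NID1, the nidogen that links laminin to collagen IV, had 11.2 and 6.22 CPM with clofazimine, against 36.2 and 41.8 CPM untreated, and fell by 2.18. MATN2, a matrilin, fell by 1.74, with 75 and 102 counts with clofazimine against 362 and 379 untreated. RPL30, overlapping it on the opposite strand, had 3352 and 4370 against 2660 and 2526, and reads may be shared. The gene that rose was TINAGL1 at 0.58 ± 0.12. The count of lower genes was 7 with the DESeq2 Wald test and 6 without a filter or without untreated replicate 2.

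Receptors of the 10 proteins were divided, with 10 of 19 tested genes lower and 5 higher at a median of -0.33, and 13 lower and 2 higher with library totals. ITGB3, a subunit of the vitronectin receptor, had 0.853 and 0.327 CPM with clofazimine against 2.33 and 3.56 CPM untreated and fell by 2.35, or by 3.12 without clofazimine replicate 1. PTPRB, a receptor phosphatase counted in this list, fell by 2.10, and whether it binds any of the 10 proteins was not examined. LRP1, a scavenger receptor for thrombospondin and decorin, had 584 and 305 CPM with clofazimine, against 1330 and 1511 CPM untreated (-1.68 ± 0.21, named after its values were seen). Beside SDC4, TLR2, which responds to biglycan, was higher at 2.10 and 1.44 CPM against 0.740 and 0.848 CPM, a call at an adjusted p of 0.032 that ended in 8 of 12 alternative settings. The integrin subunits of the fibronectin receptor were not called, at -0.21 ± 0.15 for ITGA5 and -0.22 ± 0.13 for ITGB1, nor was the osteopontin and hyaluronan receptor CD44, at 0.10 ± 0.13 (all 3 named after their values were seen).

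Of 24 genes of TGF-beta signalling and its targets, 9 were lower and 8 higher, at a median of 0.10 that was -0.07 with library totals. Correcting for length and GC gave 7 lower and 11 higher genes and a median of 0.31. Of the 9 lower genes, 1 had no clofazimine library at the filter. SKIL and TGIF1, repressors of SMAD transcription, rose by 1.57 and 1.27, at 313 and 328 CPM with clofazimine against 123 and 93.4 CPM untreated for SKIL. The ligand TGFB3 fell by 1.64 and had 60 and 88 counts with clofazimine against 260 and 314 untreated. IFT43, overlapping it on the opposite strand, had 325 and 541 against 529 and 558. TGFB1 was not called at -0.22 ± 0.13. HNRNPUL1, overlapping it on the opposite strand, had 2380 and 2387 counts with clofazimine against 6734 and 6762 untreated. In all 4 libraries together TGFB1 had 8460 counts, and reads of either pair may be shared. LTBP1, LTBP2 and CCN2 count in this list and in another, as SDC4 does among proteoglycans and receptors.

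Enzymes that build the sugar chains of decorin, biglycan and versican were listed together with those that make hyaluronan. Of 23 tested genes 12 were lower and 3 higher, at a median of -0.49, or -0.25 with the length and GC correction. Of the 12 lower genes, 1 had no clofazimine library at the filter. B3GALT6 of the linker region had 8.61 and 14.6 CPM with clofazimine, against 36.1 and 38.2 CPM untreated, and fell by 1.67, and the dermatan sulfotransferase CHST14 fell by 1.37. CSGALNACT2, which starts chondroitin chains, and UGDH, which makes the precursor UDP-glucuronate, rose by 0.88 and 0.72. Enzymes that process or cleave the matrix had 12 of 18 tested genes lower and 0 higher, at a median of -0.77. HTRA1, a secreted protease that degrades fibronectin and decorin, had 8.38 and 8.96 CPM with clofazimine against 78.7 and 91.3 CPM untreated and was 9.78-fold lower. TLL1, a tolloid protease, had 3 and 5 counts with clofazimine against 79 and 96 untreated, or 17.5-fold lower (exact 95% counting interval 8.68 to 41.1). It is 1 of the 12 and passed the count filter through its untreated libraries alone, so it had to be lower.

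**Figure D4:**
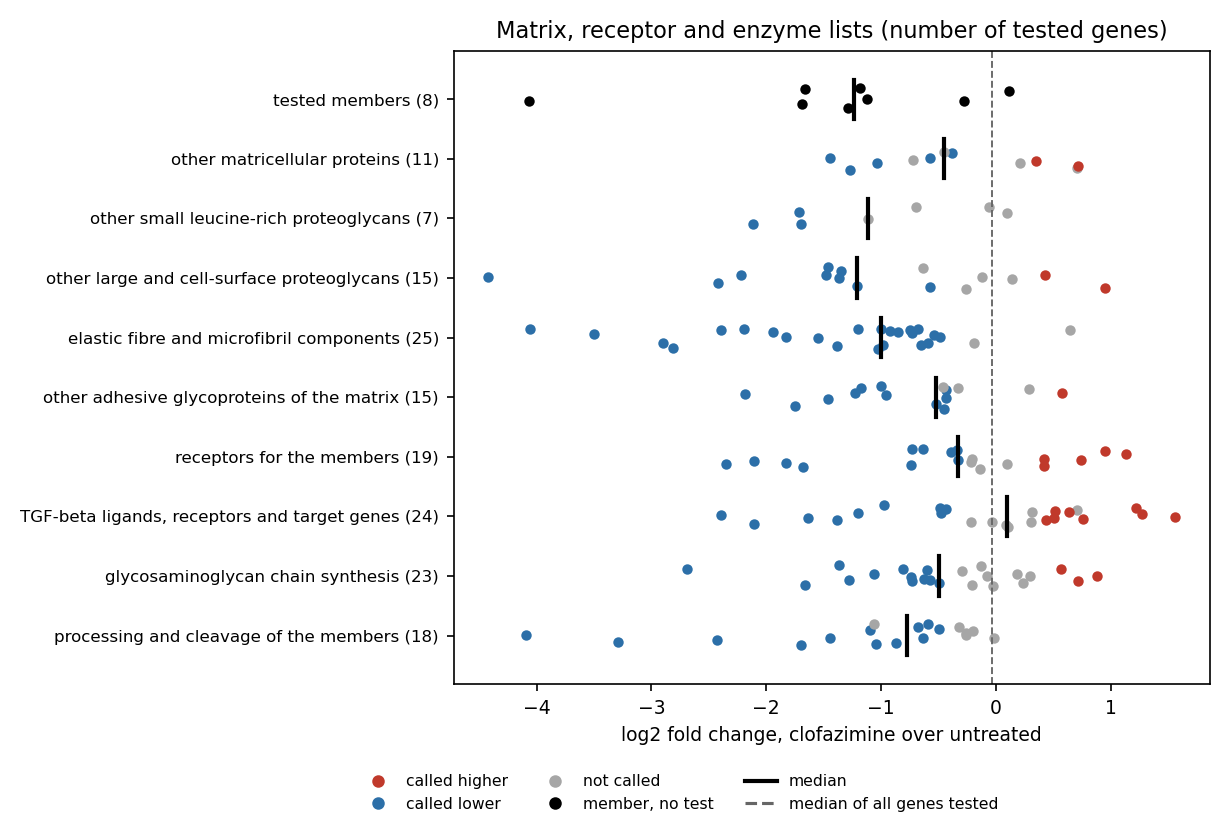
Log2 fold change of clofazimine over untreated for the tested genes of each list, with red for called higher, blue for called lower, grey for not called and black for the 8 tested genes described gene by gene, which carry no test. Black bars are list medians and the dashed line is the median of all genes tested, at -0.03, and 23 of the 25 elastic fibre and microfibril genes lie left of it as called genes.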

How the data were processed

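Poly(A) RNA of 4 MHCC97-H libraries, 2 with clofazimine and 2 untreated, was sequenced, and the deposited table holds unnormalized gene counts, 1 column a library, per the file headers. The aligner, the counting tool, its strand setting and the annotation release are not given in the sources used here. Count columns were matched to samples by treatment and number. Gene IDs were matched to GENCODE 29, and all 58735 matched. edgeR 4.0.16 fitted its quasi-likelihood test to all genes passing filterByExpr (minimum count 10, minimum total 15), with TMM scaling, untreated as reference and Benjamini-Hochberg adjustment (adjusted p under 0.05 is a call). Genes of the 9 lists were named by rule (up to 2 with the highest and 2 with the lowest log2 fold change per list, among called genes of at least 1 CPM on average whose groups did not overlap), as were genes overlapping or within 5 kb of the 10; others are marked. The 10 genes and all lists were chosen with earlier results of these data known. Alternatives were DESeq2 size factors, library totals, no filter, a 1 CPM filter, the DESeq2 1.42.0 Wald test, limma-voom 3.58.1, a replicate block, an exon length and GC offset, and leaving out each library. Intervals and floors cover counting error only. The fit was run on simulated counts in which few genes changed. That run does not check calls in data where 59.9% of genes were called.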

Additional observations from a re-analysis of the deposited data

How the results depend on the processing

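Leaving out each library in turn left 5 to 7 of the 10 genes called lower and 0 called higher (BGN was not called without untreated replicate 2, and THBS1 was without clofazimine replicate 1 and with library totals), and the length and GC correction called 1 higher (TGFBI). Among all genes, leaving out a library gave 3397 to 4916 higher and 3523 to 4866 lower. In the lists, counts of higher genes that moved were 1 other matricellular gene with library totals, no filter or the DESeq2 Wald test (1 to 2 without a library), 1 small leucine-rich proteoglycan with the length and GC correction, and 1 other proteoglycan with library totals, no filter, the DESeq2 Wald test or the length and GC correction (1 to 2 without a library). Receptors called higher numbered 2 with library totals and 3 with no filter or the DESeq2 Wald test (2 to 4 without a library), adhesive glycoproteins 1 to 2 and TGF-beta genes 5 to 9 without a library. Lower small leucine-rich proteoglycans numbered 5 with library totals and 1 with the DESeq2 Wald test (0 to 2 without a library), and lower adhesive glycoproteins 6 with no filter and 7 with the DESeq2 Wald test (6 to 10 without a library). SRGN turned to -0.32 with the length and GC correction and HAUS7 ranged between -0.61 and 0.092 without a library, the higher one without clofazimine replicate 2. The cause was not tested. Libraries with the same replicate number shared little deviation across genes (correlation of deviations -0.058). That value cannot show whether they were prepared in pairs, which the labels do not state. The replicate block gave 4715 higher and 4890 lower genes, with 6 of the 10 genes lower. Counts of 1 to 3 in SPARC, BCAN and SPP1 limit those values.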
